A study of Rattus norvegicus with 12 samples.

Results

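The proteasome is the large protease that breaks down ubiquitin-tagged proteins, and its subunits were followed here in the liver of rats fed wakame, an edible brown seaweed. Members were all probe sets on the array whose only gene symbol begins with Psm followed by a letter from a to g and a digit. They stood for 46 of the 14217 genes that the table holds under a single symbol, and came to 60 of its 31099 probe sets. A probe set is a group of short probes aimed at the transcripts of one gene. Psmc3ip and Psme3ip1 matched by name alone, since they encode partner proteins and not proteasome parts, which left 44 genes for subunits, activators, the inhibitor and assembly chaperones. A further 6 probe sets that carry several symbols, such as Psma3l with Psma3, were left out.

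The study measured liver total RNA of male Sprague Dawley rats aged 9 weeks on Affymetrix 3-prime expression arrays. The rats had eaten the purified AIN-93G diet without wakame (control), or containing wakame powder at 0.1% or at 1%, for 28 days. Each diet had 4 arrays, each labelled as a separate biological replicate. Each diet was fed to 6 rats caged in threes, which means that a diet effect and a cage effect cannot be told apart, and p-values cover the spread between these rats.

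The core particle of the proteasome is a barrel of stacked rings, in which alpha subunits (Psma genes) form the gate and beta subunits (Psmb genes) line the chamber, some of them as the proteases. A regulatory particle caps the barrel, its ATPases (Psmc genes) unfold the substrate, and its non-ATPase subunits (Psmd genes) bind ubiquitin and remove it. Interferon replaces the catalytic beta subunits by Psmb8, Psmb9 and Psmb10, and the resulting immunoproteasome is known for making peptides for antigen presentation. In the liver the proteasome turns over short-lived regulatory proteins, misfolded proteins and apolipoprotein B.

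Most proteasome probe sets hold no usable variation. In 40 of the 60 (66.7%), the values on the 12 arrays had a standard deviation (SD) of at most 0.01 log2, and these are counted as unmeasured. Over the whole table without 57 manufacturer's controls the share was 89.6%. In 36 of the 40 the SD was below 1e-06, so the table holds practically 1 number for all 12 rats. How such values arose is not known, and they do not show that the RNA was equal among diets. The unmeasured members were not dim as a group, since their deposited levels ran from 6.10 to 10.82 log2 and 34 of the 40 lay above the median of all values, 6.591. The other 20 probe sets (33.3%), for 19 genes, varied, with means of 7.75 to 11.14 log2. Nearest to the limit, Psmd7 varied with an SD of 0.0641, and Psme2 was counted as unmeasured with 0.00201.

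The varying members were spread unevenly over the particle. Among the core alpha subunits 6 of 7 probe sets varied, and Psma3 did not. A probe set shared by Psma3l and Psma3, left out for its several symbols, did vary (SD 0.216 log2). Among the core beta subunits 5 of 11 varied, for Psmb3, Psmb4, Psmb7, Psmb8 and Psmb9. Psmb5, which carries the chymotrypsin-like activity, and Psmb1, Psmb2 and Psmb10 were unmeasured. Psmb6 was covered only by a probe set shared with Psmb6l1, which varied (SD 0.162 log2) and was left out in the same way. The regulatory particle is thinly covered. Of 9 ATPase probe sets 2 varied (Psmc2 and Psmc6), with Psmc1, Psmc3, Psmc4 and Psmc5 unmeasured. Of 20 Psmd probe sets, counted by symbol and so with the chaperone Psmd5, 3 varied (Psmd5, Psmd7 and Psmd14). The other 11 Psmd genes were unmeasured, among them the ubiquitin receptor Psmd4 and the scaffolds Psmd1 and Psmd2. Of the activators, both varying probe sets were for Psme4, and Psme1 and Psme2, the interferon-induced cap, were unmeasured. The inhibitor gene Psmf1 was unmeasured, and of the chaperones that assemble the alpha ring Psmg1 and Psmg3 varied while Psmg2 and Psmg4 did not.

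**Figure D1:**
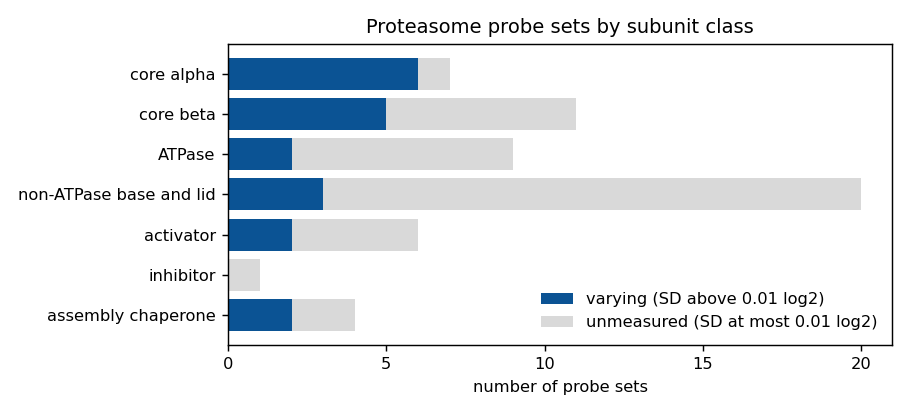
Bars give the number of probe sets in each subunit class (x axis), with varying ones (SD over the 12 arrays above 0.01 log2) in blue and unmeasured ones in grey. Core alpha has 6 varying of 7, and the non-ATPase base and lid has 3 varying of 20.

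Genes with more than 1 probe set show how both kinds of value stand side by side. Psmc6 has 3 probe sets, of which 1 varied (mean 7.75 log2), and the other two stood at 9.51 and 9.45 on all arrays. Psme4 has 3, of which 2 varied, Psmd14 has 3, of which 1 varied, and Psmd7 has 2, of which 1 varied. A result for such a gene therefore rests on the varying probe sets alone.

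Promoters are shown for the 4 genes with the smallest unadjusted p between 1% wakame and control, so that the letters behind the motif counts can be seen. Each is the RefSeq sequence of the GRCr8 assembly from 250 bases before to 50 bases after the annotated gene start, written 5′ to 3′ on the strand of the gene, with motif matches in capitals.
Psmc6, chr15:21022064-21022363, plus strand: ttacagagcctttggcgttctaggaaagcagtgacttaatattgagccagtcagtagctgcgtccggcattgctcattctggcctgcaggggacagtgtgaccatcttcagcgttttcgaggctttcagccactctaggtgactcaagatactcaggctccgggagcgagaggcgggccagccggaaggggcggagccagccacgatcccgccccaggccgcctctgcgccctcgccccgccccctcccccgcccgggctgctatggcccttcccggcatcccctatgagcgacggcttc
Psma4, chr8:64236270-64236569, plus strand: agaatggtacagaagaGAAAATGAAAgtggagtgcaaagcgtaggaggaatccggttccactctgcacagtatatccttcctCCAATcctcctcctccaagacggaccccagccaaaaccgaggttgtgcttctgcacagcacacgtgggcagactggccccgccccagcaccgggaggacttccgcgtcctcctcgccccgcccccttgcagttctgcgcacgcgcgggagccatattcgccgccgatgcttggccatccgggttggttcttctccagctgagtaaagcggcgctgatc
Psmb9, chr20:4668750-4669049, plus strand: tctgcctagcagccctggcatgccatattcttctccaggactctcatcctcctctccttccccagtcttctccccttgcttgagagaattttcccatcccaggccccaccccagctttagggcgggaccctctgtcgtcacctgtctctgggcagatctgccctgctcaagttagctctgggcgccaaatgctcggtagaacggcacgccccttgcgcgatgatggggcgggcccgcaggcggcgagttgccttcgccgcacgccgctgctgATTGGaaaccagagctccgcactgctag
Psma2, chr17:55260392-55260691, minus strand: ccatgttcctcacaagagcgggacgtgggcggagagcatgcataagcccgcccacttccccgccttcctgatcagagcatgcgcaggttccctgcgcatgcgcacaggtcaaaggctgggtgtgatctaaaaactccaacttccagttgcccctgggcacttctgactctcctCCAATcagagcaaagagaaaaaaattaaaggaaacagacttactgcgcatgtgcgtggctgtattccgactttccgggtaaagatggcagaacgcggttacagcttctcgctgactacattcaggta

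Motifs were searched on both strands. They were TGACNNNGC, the antioxidant response element bound by NRF1 and NRF2, GAAA followed after any 2 bases by GAAA, a form of the interferon-stimulated response element, and CCAAT, the box bound by NF-Y. RefSeq promoters were at hand for 40 of the 44 genes. TGACNNNGC was in 7 of the 40, against 12.2% of 27456 rat promoters, and Psme4 was the 1 gene with a varying probe set among them. The interferon-type motif was in 7 of the 40, against 3.77% of all promoters. These were Psma4, Psmb3, Psmb8 and Psmd7 among the genes that varied, and Psmb10, Psme2 and Psmg4 among the unmeasured. CCAAT was in 20 of the 40, against 37.7% of all. Psmc6 had none of these letters in its window, Psma4 had an interferon-type match from base −234 and a CCAAT box from −168, Psma2 had a CCAAT box from −77, and Psmb9 had the reverse complement of CCAAT from base 23. Median GC content was 56.5% in proteasome promoters and 52.3% in all. A match is a description of the letters, not a bound site.

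Under 1% wakame the means of most varying proteasome probe sets were slightly below control, and only Psmc6 passed the test. With limma and Benjamini-Hochberg adjustment over all 3240 varying probe sets, 1 of 20 members had an adjusted p under 0.05, where 1.67% of all varying probe sets had one. The mean was lower under 1% wakame in 18 of 20, where 55.1% of all varying probe sets were lower, and the median difference was −0.16 log2 for the members and −0.02 for all. Without the second liver of the 1% diet the members' median was −0.09, and after quantile normalization it was −0.10, each with 16 of 20 lower. With a measure of RNA integrity (the difference between the 3-prime and 5-prime Gapdh probe sets, described further on) in the fit, the median was 0.01, with 9 lower and 11 higher. At an unadjusted p under 0.05 stood 3 of 20 members, near the 18.5% of all varying probe sets. The values of 1% wakame and control did not overlap in 2 of 20, against 11.3% of all. The RNA comes from whole liver, so a lower value can stand for less RNA per cell or for fewer cells of a type, and these cannot be told apart.

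Psmc6 encodes an ATPase of the base, known in yeast as Rpt4. On the probe set that varied it read 7.95, 7.98, 7.91 and 7.86 log2 in the control livers, 7.68, 7.67, 7.81 and 7.66 under 0.1% wakame, and 7.58, 7.53, 7.66 and 7.72 under 1% wakame. Every wakame liver lay below every control liver, and the wakame diets overlapped each other. Under 1% wakame Psmc6 differed from control by −0.30 ± 0.06 log2 (SE, n = 4 per diet, 95% interval −0.44 to −0.16, limma adjusted p = 0.0486), so that on the linear scale it fell by 18.9%. The difference of 0.1% wakame from control was −0.22 log2 with an adjusted p of 0.223. The call is at the threshold: the adjusted p ran from 0.0504 to 0.150 when any 1 of the 12 arrays was left out, and from 0.0431 to 0.222 over the other settings tried. Its other two probe sets were unmeasured, so no second probe set bears on the fall. Psmc2, the other ATPase that varied, differed by −0.06.

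**Figure D2:**
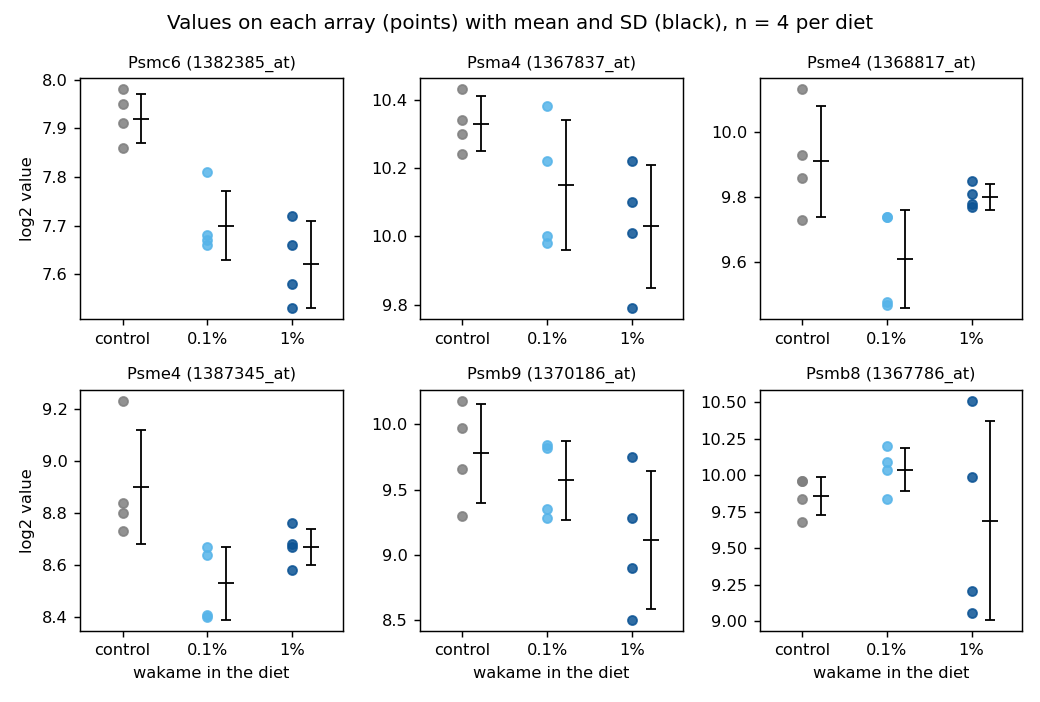
Points are log2 values of 6 probe sets on each array (y axes differ) by wakame in the diet (x axis), and the black bars are the mean and SD of 4 arrays. Psmc6 separates control from both wakame diets, Psme4 is lowest under 0.1% wakame, and Psmb8 and Psmb9 spread most under 1% wakame.

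The alpha ring was lower on average in all 6 varying probe sets, none of which passed the test. Psma4 came nearest. It read 10.43, 10.24, 10.30 and 10.34 log2 in control livers, 10.22, 9.98, 10.38 and 10.00 under 0.1% wakame, and 10.01, 9.79, 10.10 and 10.22 under 1% wakame. The 1% livers lay below all controls, by a narrow margin at 10.22 against 10.24, and the 0.1% livers overlapped both. The difference of 1% wakame from control was −0.30 log2 (limma adjusted p = 0.200). Over the settings tried, apart from leaving out an array, it ran from −0.30 to −0.14.

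Psma2 had a larger mean difference, −0.33 log2, but its diets overlapped. Its values were 10.30, 10.04, 9.97 and 10.21 in control livers, 9.62, 9.77, 10.38 and 10.10 under 0.1% wakame, and 9.72, 9.63, 9.83 and 10.01 under 1% wakame. Both the lowest and the highest of the 12 livers belonged to the 0.1% diet. Psma1 differed by −0.22, Psma5 by −0.13, and Psma6 and Psma7 by −0.02 each, which became 0.02 and 0.03 after quantile normalization of the arrays. Over the settings tried, apart from leaving out an array, Psma2 ran from −0.33 to −0.10. Psma1 ran from −0.22 to 0.01, the latter with the Gapdh difference in the fit.

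Among the standard beta subunits, which with the alpha subunits build the constitutive core, Psmb7, the trypsin-like protease, differed by −0.18 log2, Psmb3 by −0.15 and Psmb4 by −0.06 between 1% wakame and control. These 3 means were lower and their diets overlapped, and with the Gapdh difference in the fit Psmb3 and Psmb4 turned to 0.02 and 0.07. Psmd14, the enzyme that cuts ubiquitin off the substrate, differed by −0.19, Psmd5, a chaperone of base assembly, by −0.17, and the lid subunit Psmd7 by −0.04. None of the 3 passed the test, and with the Gapdh difference in the fit Psmd14 and Psmd7 turned to 0.01 each. Psmd14 read 9.64, 9.53, 9.35 and 9.55 in control livers, 9.36, 9.19, 9.67 and 9.27 under 0.1% wakame, and 9.31, 9.05, 9.43 and 9.53 under 1% wakame, and its highest value was in a 0.1% liver.

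The interferon-induced subunits Psmb8 and Psmb9 each varied more within the 1% diet than within the other diets. Psmb9 read 9.30, 9.97, 9.66 and 10.18 log2 in control livers, 9.82, 9.84, 9.35 and 9.28 under 0.1% wakame, and 8.50, 8.90, 9.75 and 9.28 under 1% wakame. The first 2 livers of the 1% diet were the lowest of the 12, and the other two lay within the control range or just under it. Psmb9 differed by −0.67 ± 0.27 log2 between 1% wakame and control (SE, n = 4 per diet, limma adjusted p = 0.235), the largest mean difference of the 20 members.

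Psmb8 read 9.96, 9.96, 9.84 and 9.68 in control livers, 10.04, 10.20, 10.09 and 9.84 under 0.1% wakame, and 9.21, 9.06, 10.51 and 9.99 under 1% wakame. The same 2 livers of the 1% diet were lowest, and the third was the highest of all 12. Its SD was 0.68 under 1% wakame and 0.13 in control, and its difference of −0.17 has a 95% interval of −0.77 to 0.43.

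In the rat genome Psmb8 and Psmb9 alternate with the peptide transporter genes Tap1 and Tap2 on chromosome 20, in the order Tap2, Psmb8, Tap1, Psmb9 (GRCr8). Tap1 was unmeasured. Tap2 read 7.66, 7.78, 7.63 and 7.61 log2 in control livers and 7.56, 7.56, 7.71 and 7.60 under 1% wakame, a difference of −0.06. The 2 low livers for Psmb8 and Psmb9 were also the lowest of the 12 for Tap2, within a much narrower range. Igtp, an interferon-induced GTPase, had 8.51, 7.78, 9.13 and 8.65 under 1% wakame against 9.35, 9.61, 9.66 and 9.19 in control livers. All of its 1% livers were below the controls, with a difference of −0.93 ± 0.32 (SE, n = 4 per diet) that did not pass the test (limma adjusted p = 0.170). Most of the other interferon genes did not share this pattern. Of the 10 that varied, Igtp included, 7 were above the control mean in the first 1% liver. Among these were Isg15 at 8.49 against 8.22 and Oas1a at 8.23 against 8.01. In the second 1% liver 9 of 10 were below the control mean. Irf1, at 8.00 and 8.10 against 8.18, and Cxcl10, at 6.62 and 6.58 against 6.88, were below it in both livers, as Igtp was. The marker Ptprc, found on all leukocytes, had 7.81, 7.07, 7.72 and 7.26 under 1% wakame and 7.30, 7.45, 7.69 and 7.51 in control livers, and was high in the first and low in the second of the 2 livers with low Psmb9. Cd74, the invariant chain of antigen-presenting cells, had 9.91 and 8.81 in those 2 livers. Of 9 lymphocyte markers with a probe set these 2 varied, and neither passed the test. The part of immune cells in the Psmb8 and Psmb9 values was not tested.

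**Figure D3:**
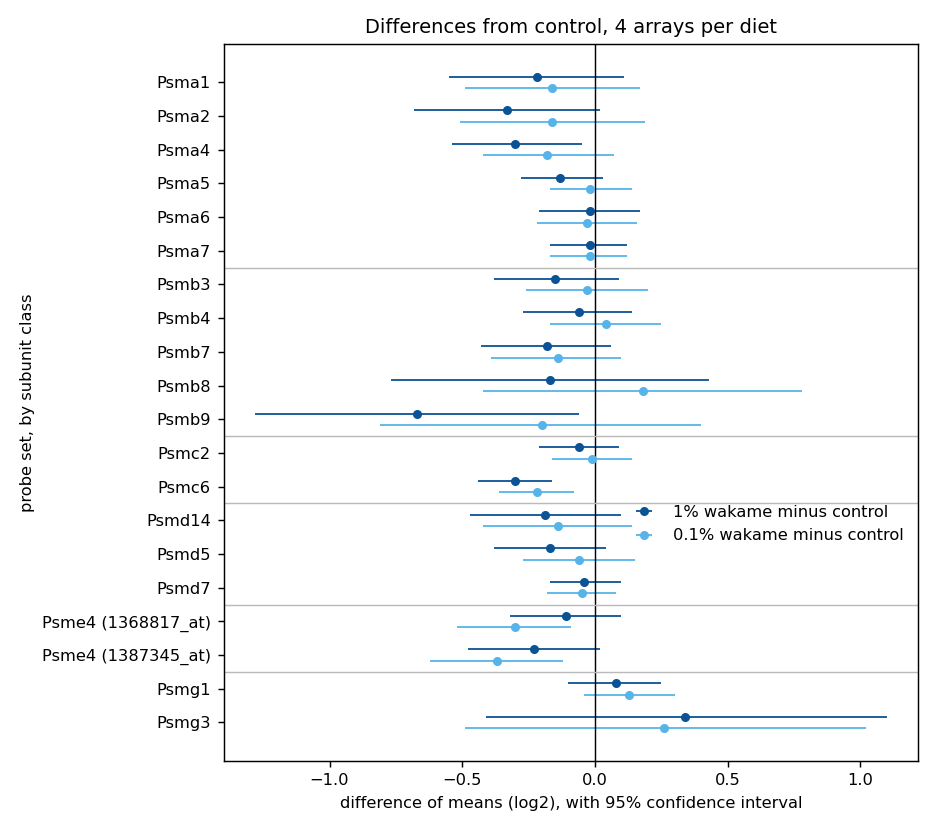
Points are differences of mean log2 values from control (x axis) for the 20 varying probe sets (y axis), with 95% confidence intervals, for 1% wakame in dark blue and 0.1% wakame in light blue, 4 arrays per diet. For 1% wakame 18 of 20 points are below 0, and Psmb9 has the largest difference at −0.67.

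Under 0.1% wakame no proteasome probe set passed the test, where 0.0617% of all varying probe sets did. Without adjustment 3 of 20 had a limma p under 0.05, against 11.5% of all, and 2 of 20 did not overlap with control, against 5.86% of all. The mean was lower in 16 of 20, where 55.9% of all were lower, and the median difference was −0.06 log2 for the members and −0.02 for all. With single arrays left out that median ran from −0.03, with 12 of 20 lower without control liver 1 or without the second 0.1% liver, to −0.10, with 17 lower without control liver 3. This comparison shares the control livers with that of 1% wakame, so the directions of both are not independent.

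Psme4, which encodes an activator that caps the core without ATPases and is known for its part in the loss of acetylated histones in male germ cells, was lowest under 0.1% wakame on both probe sets. On the first it read 10.13, 9.93, 9.86 and 9.73 log2 in control livers, 9.47, 9.48, 9.74 and 9.74 under 0.1% wakame, and 9.77, 9.81, 9.78 and 9.85 under 1% wakame. The 1% livers lay above all 0.1% livers and within the control range. The difference of 0.1% wakame from control was −0.30 and that of 1% wakame from 0.1% wakame was 0.20 (limma adjusted p = 0.231 and 0.761).

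On the second Psme4 read 9.23, 8.80, 8.84 and 8.73 in control livers, 8.40, 8.41, 8.67 and 8.64 under 0.1% wakame, and 8.68, 8.58, 8.67 and 8.76 under 1% wakame. Here every 0.1% liver was below every control, with a difference of −0.37 (limma adjusted p = 0.229), and the 1% livers overlapped both. The probe sets are of one gene and one set of livers, so they are not independent.

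Between 1% and 0.1% wakame no member passed the test and none had an unadjusted limma p under 0.05, while among all varying probe sets 0 passed and 6.76% had such a p. The values did not overlap in 1 of 20, which was Psme4, against 3.77% of all. The mean was lower under 1% wakame in 14 of 20 members and in 51.0% of all, with medians of −0.06 and 0.00 log2. The members' median was −0.03, with 11 lower, without the third 0.1% liver, −0.12, with 17 lower, without the fourth 1% liver, and 0.02, with 7 lower, with the Gapdh difference in the fit. In the F-test over the 3 diets 0 of 20 passed, where 0.185% of all did, and 3 of 20 had an unadjusted p under 0.05, against 14.2% of all.

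Psmg1 and Psmg3, chaperones of the alpha ring, were the members whose means were higher under both wakame diets. Psmg1 differed by 0.08 log2 under 1% wakame and 0.13 under 0.1% wakame, neither past the test. Psmg3 read 7.74, 7.64, 7.50 and 7.49 in control livers, 7.43, 7.52, 8.80 and 7.67 under 0.1% wakame, and 7.56, 7.71, 7.62 and 8.86 under 1% wakame. A single liver in each wakame diet stood more than 1 log2 above its fellows, and the others overlapped the controls. Its difference between 1% wakame and control was 0.34 with a 95% interval of −0.41 to 1.10.

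Set side by side by class, the median differences between 1% wakame and control were −0.17 log2 for the alpha subunits, −0.15 for the standard beta subunits and −0.42 for the interferon-induced beta subunits. They were −0.18 for the ATPases, −0.17 for the Psmd genes (the chaperone Psmd5 included), −0.17 for the Psme4 probe sets and 0.21 for the Psmg chaperones. Between 0.1% wakame and control they were −0.09, −0.03, −0.01, −0.12, −0.06, −0.34 and 0.20 in the same order. With 2 to 6 varying probe sets in a class these values only describe the classes, and no difference between classes was tested.

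The members did not vary independently of one another, because some livers stood high or low in many members at once. The third liver of the 0.1% diet was the highest of all 12 in 8 of the 20 probe sets and the highest of its diet in 17. The second liver of the 1% diet was the lowest of all 12 in 8, and the fourth liver of that diet was the highest of its diet in 16. Control liver 1 was the highest of 12 in 5. The 20 probe sets are therefore not independent observations of a diet. Such counts were not made over all varying probe sets, so this trait may not be particular to the proteasome.

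**Figure D4:**
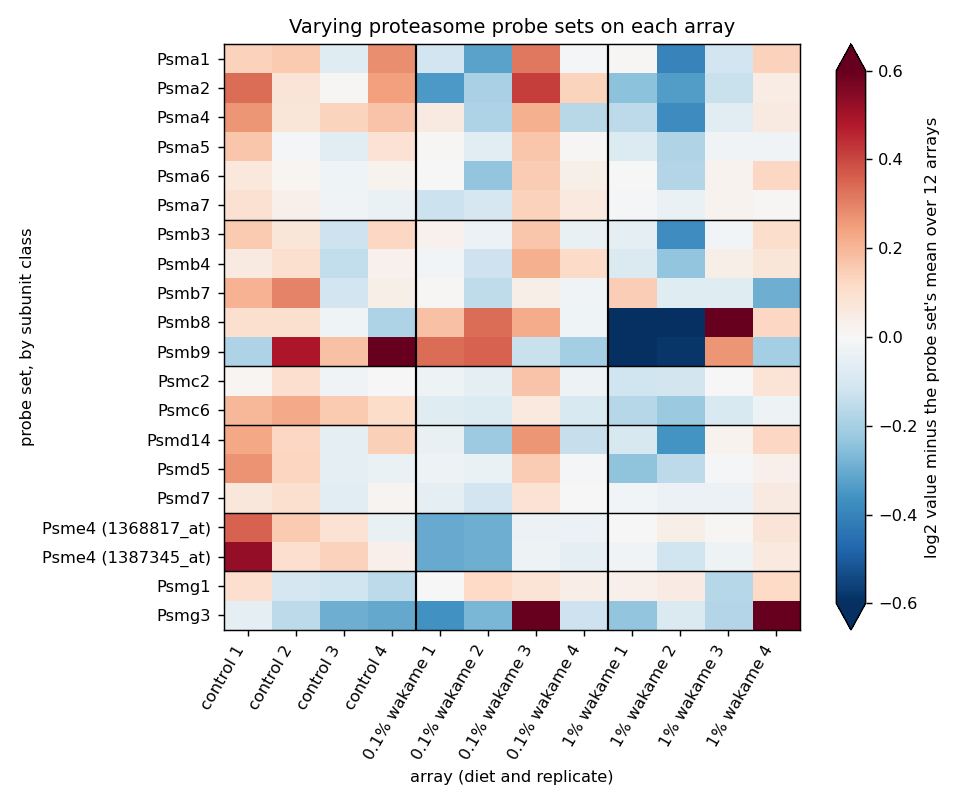
Colour gives each log2 value minus the mean of its probe set over the 12 arrays, with the 20 varying probe sets down the side by class and the arrays across by diet. The third 0.1% wakame array is red in most rows, the second 1% wakame array is blue in most, and Psmc6 is red in the 4 controls.

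Of 2 measures of RNA integrity, 1 moved with the livers that had the lowest and the highest mean of the members. The manufacturer's control probe sets at the 3-prime and 5-prime ends of Gapdh differ more when RNA is shorter or less fully copied. The difference between them was 1.21 ± 0.16 log2 under 1% wakame and 1.05 ± 0.01 in control (SD, n = 4; exact permutation test, two-sided p = 0.143), with 1.08 ± 0.10 under 0.1% wakame. The mean of the 20 members was lowest, 9.43, in the second liver of the 1% diet, which had the largest Gapdh difference, 1.42. It was highest, 9.84, in the third liver of the 0.1% diet, which had the smallest, 0.96. Among the controls the mean of the members ran from 9.63 to 9.81, while the Gapdh difference stayed at 1.04 to 1.07. Control liver 1 had a mean of 9.81 with a Gapdh difference of 1.07. When the Gapdh difference was added to the fit, the median of the 20 between 1% wakame and control became 0.01 log2, with 9 lower and 11 higher. Psmc6 then differed by −0.22 with an adjusted p of 0.222. The Gapdh difference hardly varied among the controls (SD 0.01), so this adjustment rests almost wholly on the wakame livers. It was also higher on average under 1% wakame, so this fit cannot fully tell diet and RNA integrity apart. The same measure for Actb averaged 2.38 ± 0.07 under 1% wakame and 2.31 ± 0.13 in control (SD, n = 4; exact permutation test, two-sided p = 0.371). It ran the other way in the livers with the lowest and the highest mean of the members. The second of the 1% diet had 2.28, the lowest of its diet, and the third of the 0.1% diet had 2.43, the highest of its diet.

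**Figure D5:**
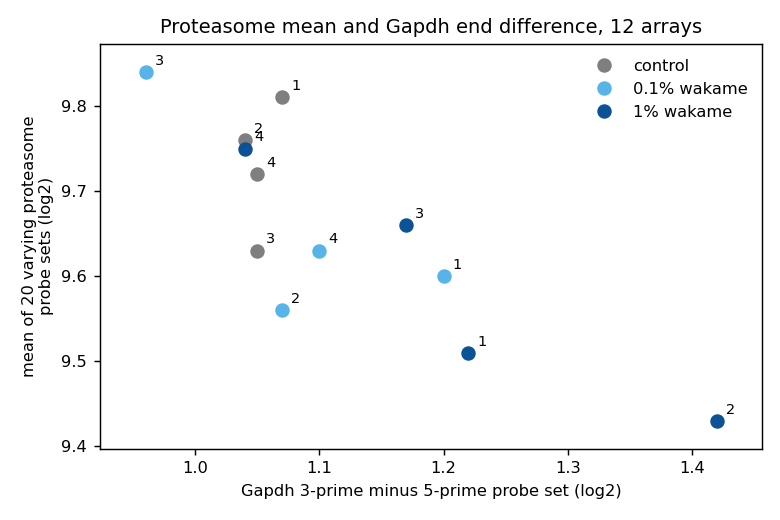
Each point is 1 array, with the difference between the 3-prime and 5-prime Gapdh probe sets (log2) on the x axis and the mean log2 value of the 20 varying proteasome probe sets on the y axis; labels are replicate numbers and colours are diets. The second 1% wakame array is at 1.42 and 9.43, and the third 0.1% wakame array at 0.96 and 9.84.

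Genes that act with the proteasome were looked up in lists, 1 probe set per gene. Of 10 genes for regulators and assembly factors outside the Psm family 4 varied. Nfe2l1, the factor known to restore proteasome genes when the protease is blocked, and Pomp, which matures the core, were unmeasured. Ddi2, the protease that activates Nfe2l1, read 9.86, 9.89, 9.64 and 9.47 log2 under 1% wakame and 9.28, 9.34, 9.53 and 9.10 in control livers. The diets overlapped in 1 liver each, and the difference of 0.40 ± 0.12 (SE, n = 4 per diet) had a limma adjusted p of 0.127. Nfe2l2, whose product NRF2 drives antioxidant genes, differed by −0.69 ± 0.26 with an adjusted p of 0.201. Of 14 NRF2 target genes with a probe set 12 varied, and all 12 means were lower under 1% wakame, with a median of −0.57 and 0 past the test (8 with an unadjusted limma p under 0.05, against 18.5% of all varying probe sets). Control liver 1 was the highest of the 12 livers, or level with the highest, in 7 of these genes, and without it 10 of 12 were lower, with a median of −0.39 and 5 at an unadjusted p under 0.05. With the Gapdh difference in the fit all 12 were lower, with a median of −0.53 and 2 at an unadjusted p under 0.05. In the main fit Srxn1 (−0.78 log2), Me1 (−1.96) and Pgd (−0.97) had the smallest p of the 12. The smallest differences were those of Hmox1 (−0.01) and Gclm (−0.05).

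Of the ubiquitin receptors, shuttles and deubiquitinases that bind the proteasome, such as Usp14, Uchl5 and Adrm1, none of 9 with a probe set varied. Both E1 enzymes with a probe set, Uba1 and Uba6, were unmeasured. Of 24 E2 ubiquitin-conjugating enzymes 8 varied, with 6 lower and 0 past the test, among them Ube2b at −0.20 and Ube2g1 at −0.26 log2. Of the genes for antigen processing and MHC class I 7 of 11 varied, with 6 lower, a median of −0.06 and 0 past the test, and of interferon-response genes 10 of 14 varied, with 9 lower, a median of −0.11 and 0 past the test. Of 11 genes for the p97 segregase and its cofactors 3 varied, and of 13 autophagy genes 4 did, with none past the test.

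Of 16 genes for chaperonins and heat shock proteins, which help proteins to fold, 8 varied, with 7 lower and a median of −0.27. Among these 8, Hspd1 and Hspe1 are mitochondrial, and without them 5 of 6 were lower, with a median of −0.24. By 1 probe set per gene none passed, and Hsp90ab1, a constitutive chaperone, differed by −0.36. A second Hsp90ab1 probe set fell by 0.59 ± 0.12 log2 under 1% wakame (SE, n = 4 per diet, limma adjusted p = 0.0472). This was the only call among 69 varying probe sets of the pathway lists, where 1.67% of all varying probe sets were called. Leaving out each of the 12 arrays in turn kept this call 3 times (adjusted p 0.0358 to 0.136), and 8 of 11 other settings kept it (0.0384 to 0.247).

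The livers carried the hepatocyte markers at high level: the 5 that varied averaged 12.83 to 13.17 log2 under 1% wakame and 12.64 to 12.98 in control, by liver. Kupffer cell markers (6 of 8 varied) averaged 8.82 to 9.29 under 1% wakame and 8.75 to 9.35 in control, and stellate cell markers (5 of 9 varied) 8.24 to 8.81 and 8.21 to 8.58, by liver. The means of all 5 stellate markers were higher under 1% wakame, with a median difference of 0.21 log2 and 1 at an unadjusted limma p under 0.05, and 4 of 6 Kupffer markers were higher, with a median of 0.06. None of the 25 varying marker probe sets passed the test. The 4 bile duct markers with a probe set were all unmeasured, and neutrophils rest on 1 gene, so these cells were hardly covered. The part of cell composition in the proteasome values was not tested.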

How the data were processed

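Liver RNA of 12 rats, 4 per diet, was measured on Affymetrix rat arrays. Per the labels' protocols, 100 ng of total RNA was made into biotin-labelled cRNA from the 3-prime end. The authors deposited 1 table of log2 values, in which the log2 scale was inferred from values of 3.15 to 14.61. The submitters' processing notes name R 2.7.2. How background was corrected, arrays normalized and probes summarised is not given in the sources used here. No probe-level detection or background was used, so low signals could not be told from background here. The number of arrays, 4 per diet, limits the precision.

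Gene symbols came from the platform annotation, and all 60 members had the same symbol in RefSeq's table for GRCr8. The deposited values were not normalized further. A mean per diet was fitted with limma 3.58.1 (R 4.3.3, eBayes with a variance trend) to the 3240 probe sets with an SD above 0.01 log2 over the 12 arrays, and p-values were adjusted by Benjamini-Hochberg over all of them, with a threshold of 0.05. This fit was tested on simulated data. Members and gene lists were chosen with earlier results of these data known, so no list was tested. The text names every member that varied. From the lists it names any gene past the threshold and, for some lists, a few of those with the smallest p between 1% wakame and control. It also names Usp14, Uchl5, Adrm1, Uba1, Uba6, Nfe2l1, Pomp, Tap1, Tap2, Oas1a, Irf1, Cxcl10, Hspd1, Hmox1, Gclm, Ptprc and Cd74, which were chosen after their values were seen. Exact permutation tests used SciPy 1.17.1 in Python 3.11.15. Arrays of one diet correlated at 0.911 to 0.961 over varying probe sets, and 0 pairs were identical. Alternatives were other SD limits, a filter on dim probe sets, 1 probe set per gene, no trend, median centring, quantile normalization, array weights, the 2 diets alone, a replicate block, the Gapdh end difference as a covariate and leaving out each array. Promoters are RefSeq's, of GRCr8. Protein sequences were not used here.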

Additional observations from a re-analysis of the deposited data

Results flagged for a closer look

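Among the 60 sets of 4 values (20 probe sets in 3 diets), 4 held an array far from the other three by Dixon's test at 95%, and chance flags about 1 set in 20. The third array of the 0.1% diet was far above its diet in Psmc2, at 10.82 log2 against 10.59 to 10.62, in Psmd5, at 9.27 against 9.08 to 9.11, and in Psmc6, at 7.81 against 7.66 to 7.68. That array also had the smallest Gapdh end difference, 0.96. The fourth array of the 1% diet was far above its diet in Psmg3, at 8.86 log2 against 7.56 to 7.71.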

How the results depend on the processing

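The 1 proteasome call between 1% wakame and control, Psmc6, is not stable. The count was 1 with dim probe sets left out, with no variance trend and with array weights. It was 0 with all probe sets, with SD limits of 0.05 and 0.1, with 1 probe set per gene, with median centring, with quantile normalization, with the 2 diets alone, with the Gapdh covariate and with the replicate block. It was 0 to 0 when each array was left out. The difference of Psmc6 stayed between −0.34 and −0.22 log2 in all of these. The other comparisons and the F-test had 0 proteasome calls throughout.

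The median difference of the members between 1% wakame and control was 0.01 log2 with the Gapdh covariate and ranged from −0.19 to −0.09 with arrays left out. That between 0.1% wakame and control ranged from −0.14 to −0.03 over all alternatives, and that between 1% and 0.1% wakame from −0.12 to 0.02. With the Gapdh covariate the difference of 1% wakame from control turned to 0.04 in Psmc2, 0.18 in Psmb8, 0.09 in Psma6, 0.04 in Psma7, 0.01 in Psmd14, Psmd7 and Psma1, 0.07 in Psmb4 and 0.02 in Psmb3, and that of 1% from 0.1% wakame to 0.01 in Psma4. Quantile normalization gave 0.02 in Psma6 and 0.03 in Psma7, and median centring 0.00 in Psma7. Without the second 1% array Psmb8 was at 0.04 and Psma6 at 0.03, and without control array 1 Psma7 was at 0.00. With arrays left out these genes ran from −0.44 to 0.04, from −0.07 to 0.03 and from −0.04 to 0.00 in that order. The cause was not tested.

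Over all varying probe sets 54 were called between 1% wakame and control, against 9 with all probe sets, 10 with 1 probe set per gene, 28 with the 2 diets alone, 12 with the replicate block, 4 with the Gapdh covariate and 7 to 49 with an array left out. Same-numbered arrays of different diets showed no likeness, with 12 correlations of −0.115 to 0.092 after the diet means were taken out. The 36 pairs with different numbers had −0.169 to 0.257. The main fit did not pair the arrays, and a batch shared by some of them was not tested.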
